A study of Rattus norvegicus with 68 samples.

Results

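The genes described here are the rat interleukin and interleukin receptor genes on the array apart from those of IL-1, its receptors and Il18. Probes were taken by gene symbol, Il followed by a number, and 9 genes of IL-1, its receptors and Il18 were left out by the rule. Other genes of the IL-1 superfamily were kept, namely Il33, Il36b and Il18bp. This gave 40 genes on 44 probes, of 9653 named genes in all. They comprise 20 ligands, 19 receptor chains and 1 soluble inhibitor, Il18bp.

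Interleukins are secreted proteins through which white blood cells instruct one another to divide, survive, mature or stop responding. Each binds a receptor built from 1 or more chains, and many families share a chain: the common gamma chain serves IL-2, IL-4, IL-7, IL-9 and IL-15, and most of these receptors signal through JAK kinases and STAT factors. In blood, receptor transcripts mark the cells that can respond, for example Il7r on T cells, while most ligand transcripts are scarce in resting cells.

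Blood RNA was measured in 34 male F344/N rats, 10 to 12 weeks old, that had received acetaminophen (APAP), an analgesic that injures the liver in overdose, in ethyl cellulose by gavage. Groups of 4 rats received 150, 1500 or 2500 mg/kg and were killed after 6, 12 or 24 h, except that the 150 and 1500 mg/kg groups at 12 h held 3 rats. Each rat was hybridised on 2 arrays with the dyes swapped, against RNA of vehicle controls killed at that time, and the mean of both arrays was 1 replicate. The control of a time was 1 RNA sample, a pool of 4, 4 and 6 rats at 6, 12 and 24 h in the design description, whereas the labels at 6 and 12 h name 1 rat. A test against vehicle therefore leaves out the control's own spread, while a comparison between doses of 1 time does not contain the control.

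All values are log2 ratios of a treated rat over vehicle, so 1 is a doubling and -1 a halving of the transcript relative to the control. The deposited ratio was read as Cy5 over Cy3, its likely direction, and every sign would turn if it were the opposite. A ratio carries no level, so whether blood cell markers were present, and which interleukin spots stood above background, could not be read from these values. A ratio of exactly 0 was listed for Il17rb on 50 of 68 arrays, for Il23a on 25 and for Il7 on 10. The array of rat 3631 (2500 mg/kg, 24 h) that held treated RNA in Cy5 stood apart, with a correlation over named probes of -0.14 with the mean of the other arrays of that orientation. The next lowest, 0.43, was the Cy5 array of rat 4128 (150 mg/kg, 12 h). Calls of interleukin genes in the 2500 mg/kg group at 24 h are given with and without rat 3631.

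Between 0 and 11 of the 40 genes changed against vehicle in a group, at a limma adjusted p under 0.05 over all genes. At 6 h no interleukin gene changed at 150 mg/kg, where 2% of all genes did and 3 interleukin genes had an unadjusted p under 0.05. At 1500 mg/kg 3 changed (12.7% of all genes), 1 higher (3.48%) and 2 lower (9.24%). At 2500 mg/kg it was also 3 (7.72%), 1 higher (2.54%) and 2 lower (5.18%). At 12 h 1 gene was called at 150 mg/kg (1.89%), and it was higher (0.963%). At 1500 mg/kg 2 were called (4.84%), 1 higher (1.48%) and 1 lower (3.36%), and at 2500 mg/kg 1 was called (1.39%), which was lower (1.29%). At 24 h the count was 0 at 150 mg/kg, against 0% of all genes, with 2 interleukin genes at an unadjusted p under 0.05. It was 5 at 1500 mg/kg (8.08%), 3 higher (2.34%) and 2 lower (5.74%). It was 11 at 2500 mg/kg (26.5%), 7 higher (10.9%) and 4 lower (15.6%), so that 12.5% and 27.5% of the interleukin genes were called in these groups. The share of interleukin genes called was near that of all genes in most groups, and without rat 3631 it was 17.5% against 19% at 2500 mg/kg and 24 h, where 3 genes were then higher and 4 lower. In the other groups the share of all genes called was the same (150 mg/kg at 24 h) or larger without that rat.

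The calls against vehicle depended on how the control was treated. With the error widened for control pools of 4, 4 and 6 rats, 7 of the 26 calls passed: Il16 and Il23a at 1500 mg/kg and Il16 at 2500 mg/kg at 6 h, and Il16, Il13ra1, Il10 and Il4r at 2500 mg/kg and 24 h. With a control of 1 rat at 6 and 12 h, as the labels have it, the last 4 passed and no call at 6 or 12 h did. All 5 calls at 1500 mg/kg and 24 h were lost. At 24 h both cases use a pool of 6 rats and are 1 and the same test.

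**Figure D1:**
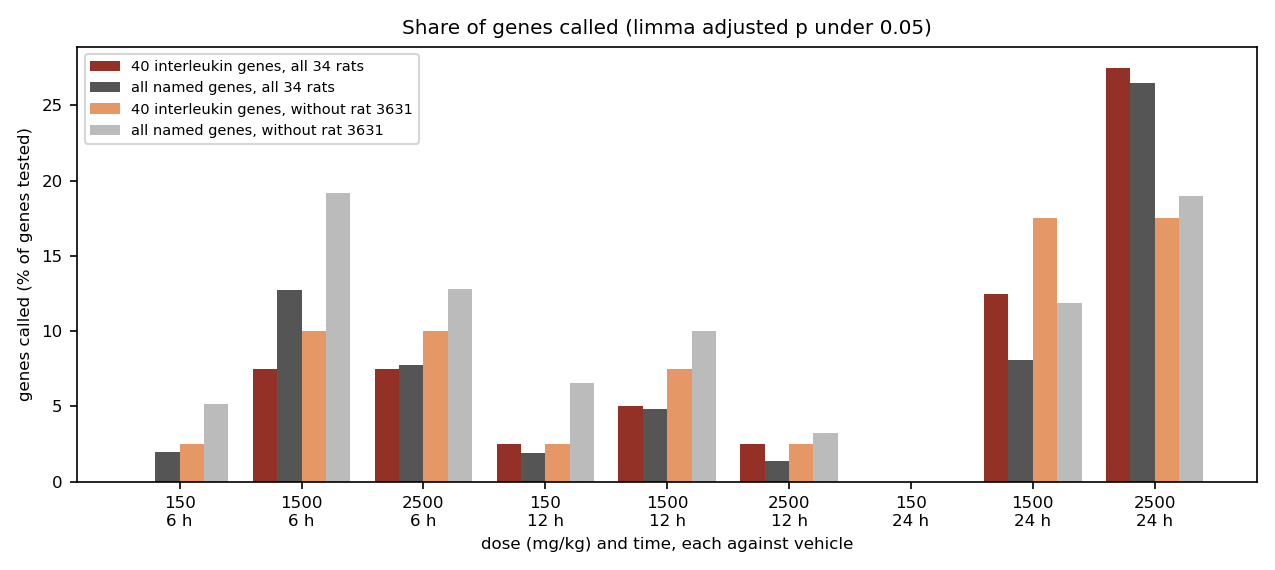
Share of genes called against vehicle (%), for the 40 interleukin genes and for all 9653 genes in each dose and time group, with all 34 rats and without rat 3631. With all rats the highest shares were those of 2500 mg/kg at 24 h, 27.5% of interleukin genes and 26.5% of all genes, and they were 17.5% and 19% without rat 3631.

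In all, 17 of the 40 genes were called in at least 1 group and 23 in none. The median log2 ratio of the 40 genes lay between -0.01 and 0.06 in the 9 groups, and that of all genes between -0.01 and 0.01. The differences were small for most members: 34 had no group mean over 0.5 in size and 15 none over 0.2. Group means over 1 in size were reached by 2 genes, Il16 and Il13ra1.

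**Figure D2:**
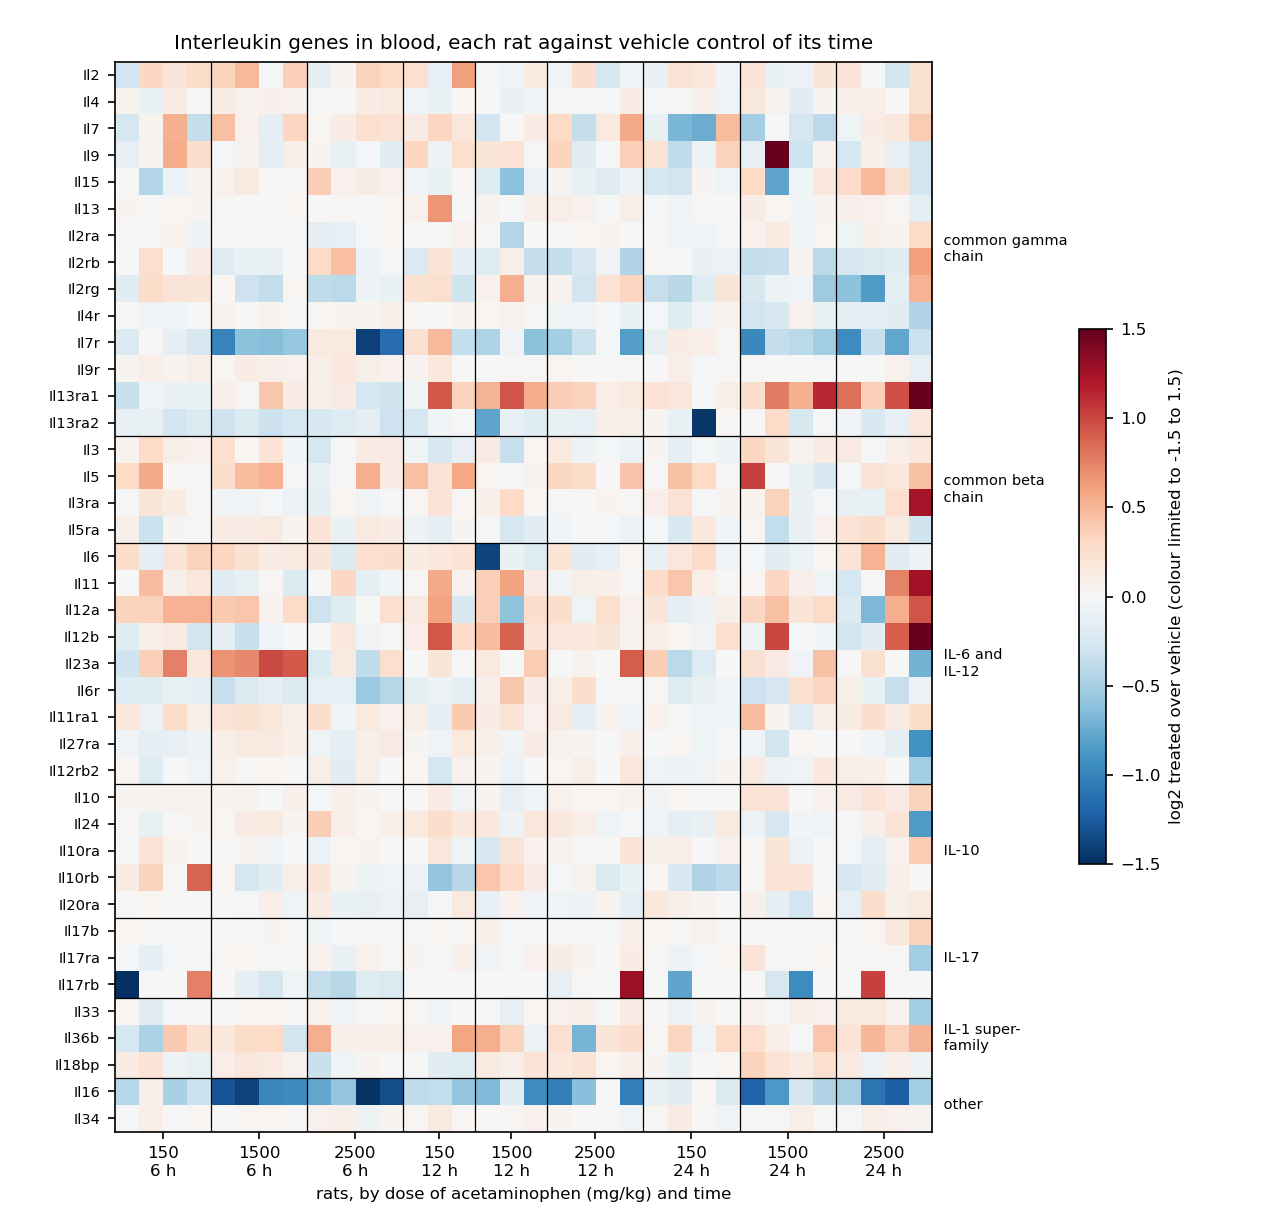
Log2 treated over vehicle of the 40 interleukin genes (rows, by receptor family) in each of the 34 rats (columns, by dose and time), with the colour scale limited to -1.5 to 1.5. The row of Il16 is blue in nearly all rats, Il13ra1 is red in the 24 h rats of 1500 and 2500 mg/kg, and the last column, rat 3631, stands apart in several rows.

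Among the ligands, Il16 showed the most frequent change: it fell in 5 of the 9 groups. Il16 encodes a cytokine that attracts CD4-bearing cells and is made as a precursor in lymphocytes. At 6 h its log2 ratios were -0.43, 0.08, -0.49 and -0.32 at 150 mg/kg, -1.29, -1.39, -0.97 and -0.95 at 1500 mg/kg, and -0.78, -0.59, -1.49 and -1.34 at 2500 mg/kg. Each rat of 1500 and 2500 mg/kg lay below each rat of 150 mg/kg. The mean was -1.15 ± 0.22 (SD, n = 4) at 1500 mg/kg, 0.45 of the vehicle level (adjusted p = 3.42e-05), and -1.05 ± 0.43 (n = 4) at 2500 mg/kg, 0.483 of the vehicle level (adjusted p = 0.000133). The 150 mg/kg mean of -0.29 did not pass (adjusted p = 0.469). With a control of 1 rat, as the labels name it at 6 h, neither higher dose passed for Il16 (adjusted p = 0.81 at 1500 mg/kg and 1 at 2500 mg/kg).

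At 12 h Il16 gave -0.39, -0.37 and -0.58 at 150 mg/kg, -0.66, -0.17 and -0.94 at 1500 mg/kg, and -1.03, -0.63, -0.03 and -1.04 at 2500 mg/kg. The doses overlapped at this time. Only the 2500 mg/kg mean, -0.68 ± 0.48 (n = 4), passed (adjusted p = 0.034), and it no longer did without rat 4135, 4136 or 4138 (adjusted p up to 0.442). At 24 h the ratios were -0.11, -0.16, 0.03 and -0.21 at 150 mg/kg, -1.19, -0.86, -0.27 and -0.45 at 1500 mg/kg, and -0.50, -1.10, -1.23 and -0.51 at 2500 mg/kg. Again no rat of the higher doses overlapped with 150 mg/kg. Il16 fell at 1500 mg/kg (mean -0.69 ± 0.41, adjusted p = 0.00691) and at 2500 mg/kg (mean -0.83 ± 0.38, adjusted p = 0.000586). Without rat 3631 the 2500 mg/kg mean was -0.94 (adjusted p = 0.000999). The 2500 mg/kg call at 24 h was kept in each of the 34 fits that left out 1 rat, and the 1500 mg/kg call was lost without rat 3623 (adjusted p = 0.121).

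The fall of Il16 was seen in both dye orientations: all 8 arrays were below 0 in each of the 1500 and 2500 mg/kg groups at 6 h and at 24 h, and 7 of 8 at 2500 mg/kg and 12 h. Set directly against 150 mg/kg, Il16 differed by -0.86 at 1500 mg/kg and -0.76 at 2500 mg/kg at 6 h, with 95% intervals of -1.34 to -0.39 and -1.24 to -0.28. After adjustment over all genes neither passed (adjusted p = 0.18 and 0.363), and 0 interleukin genes and 0.0414% and 0.145% of all genes were called in these comparisons. At 24 h the difference between 2500 and 150 mg/kg was -0.72 (adjusted p = 0.0552), and without rat 3631 Il16 was called there as well.

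Il7r, the alpha chain of the IL-7 receptor on which T cells depend for survival, was the other gene with large falls. At 6 h it gave -0.21, 0.02, -0.13 and -0.24 at 150 mg/kg, -1.01, -0.61, -0.64 and -0.56 at 1500 mg/kg, and 0.15, 0.15, -1.40 and -1.14 at 2500 mg/kg. The 1500 mg/kg rats lay below all those of 150 mg/kg, while the 2500 mg/kg rats fell into a pair near 0 and a pair below -1. Il7r fell at 1500 mg/kg (mean -0.70 ± 0.20, n = 4, adjusted p = 0.0107). The 2500 mg/kg mean was -0.56 ± 0.83 (adjusted p = 0.0632). Rats 3597 and 3598, the low pair for Il7r, were also the lowest of their group for Il16.

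At 12 h Il7r gave 0.22, 0.49 and -0.35 at 150 mg/kg, -0.46, -0.06 and -0.61 at 1500 mg/kg, and -0.52, -0.32, -0.02 and -0.82 at 2500 mg/kg. The doses overlapped and no mean passed (adjusted p = 0.352 at 1500 mg/kg and 0.285 at 2500 mg/kg).

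At 24 h Il7r gave -0.11, 0.11, 0.10 and 0.01 at 150 mg/kg, -0.96, -0.36, -0.41 and -0.52 at 1500 mg/kg, and -0.94, -0.34, -0.78 and -0.32 at 2500 mg/kg, with no overlap between 150 mg/kg and the higher doses. Il7r fell at 2500 mg/kg (mean -0.60 ± 0.31, n = 4, adjusted p = 0.0191), and the mean of -0.56 at 1500 mg/kg did not pass (adjusted p = 0.0605). Without rat 3631 the 2500 mg/kg mean was -0.69 (adjusted p = 0.0256). Both Il7r calls were lost with the error widened for a control pool (adjusted p = 0.173 at 6 h and 0.108 at 24 h). The call at 6 h was lost without rat 3591 (adjusted p = 0.0963), and that at 24 h without rat 3628 (0.0911) or 3630 (0.0731). At 24 h the difference of 2500 from 150 mg/kg was -0.62 with a 95% interval of -1.16 to -0.09 (adjusted p = 0.144). At 2500 mg/kg and 24 h the arrays with treated RNA in Cy5 averaged -0.16 and those in Cy3 -1.03, and 6 of 8 were below 0. At 1500 mg/kg and 6 h these means were -0.46 and -0.95, with all 8 arrays below 0. In every group the Cy5 mean was above the Cy3 mean, as at 150 mg/kg and 24 h (0.39 and -0.33).

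Markers of T cells, B cells, red cells and platelets were lower in some of the same groups. Of 19 T cell markers 15 were measured, and at 6 h 0, 7 and 5 of them were lower than vehicle at 150, 1500 and 2500 mg/kg, with 0 higher. At 12 h 0, 6 and 6 were lower and at 24 h 0, 9 and 10, again with 0 higher. Of all genes, 9.24% and 5.18% were lower at 1500 and 2500 mg/kg at 6 h, 3.36% and 1.29% at 12 h, and 5.74% and 15.6% at 24 h. The median over the 15 markers ranged over the rats from -0.61 to -0.34 at 1500 mg/kg and from -0.43 to -0.10 at 2500 mg/kg at 6 h. At 24 h it ranged from -0.10 to 0.08 at 150 mg/kg, from -0.84 to -0.11 at 1500 mg/kg and from -0.73 to -0.36 at 2500 mg/kg. The median over 12 natural killer and cytotoxic markers ranged from -0.08 to -0.02 at 1500 mg/kg and 6 h. It ranged from -0.11 to 0.01 at 2500 mg/kg and 24 h. For 9 eosinophil, basophil and mast cell markers these ranges were 0.02 to 0.05 and -0.08 to 0.07.

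The markers with the smallest adjusted p at 2500 mg/kg and 24 h were Cd6 (-1.07), the kinase Lck (-0.96), the CD3 chain Cd3e (-0.15) and Cd5 (-1.35). Of 6 measured B cell markers 4 were lower at 1500 mg/kg and 4 at 2500 mg/kg at 6 h, where their median ranged over the rats from -0.38 to -0.35 and from -0.41 to -0.30. At 24 h 4 were lower at 1500 mg/kg and 3 at 2500 mg/kg. Without rat 3631, 8 T cell markers were lower at 2500 mg/kg, and 4 B cell markers were lower and 1 higher. Of 14 erythroid markers 8 were lower at 1500 mg/kg and 7 lower and 2 higher at 2500 mg/kg at 24 h, with medians over the rats from -0.50 to -0.30 and from -0.64 to -0.11. Of 8 platelet markers 5 were lower at 1500 mg/kg and 12 h (medians from -0.58 to -0.21) and 5 at 2500 mg/kg and 24 h (from -0.87 to -0.28). Without rat 3631 the erythroid markers called at 2500 mg/kg and 24 h were all lower. Of the platelet markers, Gp5 was then higher (0.22), and Pf4, Ppbp, Gp1bb, P2ry12 and Clu were lower. With all 34 rats, 9.24% and 5.18% of all genes were lower at 1500 and 2500 mg/kg at 6 h, and 5.74% and 15.6% at 24 h. At 1500 mg/kg and 12 h 3.36% were lower, and at 2500 mg/kg and 24 h 10.9% were higher. Without rat 3631, 19% of all genes were called at 2500 mg/kg and 24 h, counted over both directions together. In blood RNA, fewer cells of a type and less RNA per cell cannot be told apart, and the part of any of these cell types in the Il16 and Il7r ratios was not tested.

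**Figure D3:**
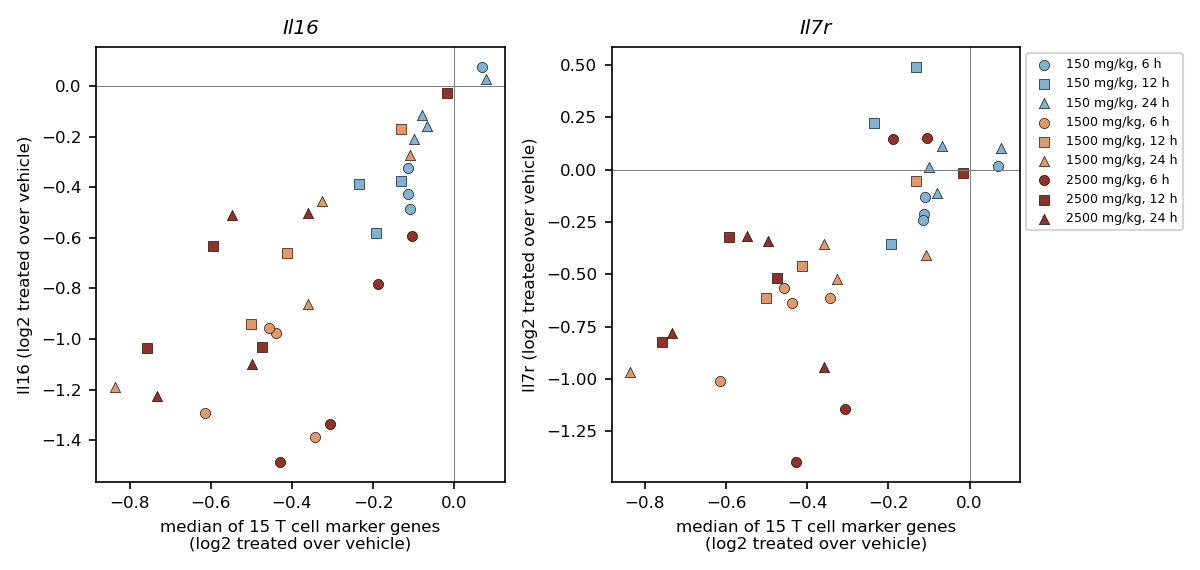
Log2 treated over vehicle of Il16 and Il7r (vertical axes) against the median of 15 T cell markers (horizontal axes), 1 point per rat, coloured by dose and shaped by time. Il16 is between -0.58 and 0.08 in the 150 mg/kg rats, and the rat with the lowest marker median (-0.84, 1500 mg/kg at 24 h) has -1.19 for Il16 and -0.96 for Il7r.

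The stretches upstream of these 2 genes that fell are shown as RefSeq gives them on GRCr8, 5′ to 3′ on the gene's strand, 250 bases before the listed start. The Il16 stretch, chr1:147116743-147116992 (minus strand), lies within the annotated span of Il16, which extends further upstream. The Il7r stretch is chr2:60204918-60205167 (minus strand). Capitals mark an AP-1 motif.
Il16: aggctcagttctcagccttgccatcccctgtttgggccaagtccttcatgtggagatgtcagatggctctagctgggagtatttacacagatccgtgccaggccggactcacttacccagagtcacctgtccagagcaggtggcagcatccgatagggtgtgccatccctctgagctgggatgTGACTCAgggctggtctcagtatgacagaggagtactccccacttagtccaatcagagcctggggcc
Il7r: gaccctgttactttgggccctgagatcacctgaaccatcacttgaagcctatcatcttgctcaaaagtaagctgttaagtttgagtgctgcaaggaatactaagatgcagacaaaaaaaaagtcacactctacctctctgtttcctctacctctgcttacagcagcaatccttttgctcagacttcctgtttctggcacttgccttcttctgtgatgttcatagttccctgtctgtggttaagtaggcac

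Both strands were searched for 4 motifs. That of STAT factors was TTCNNNGAA and that of AP-1 was TGANTCA. The motif of GATA factors was AGATAA, and the ETS motif was CCGGAA. The Il16 stretch held the AP-1 motif alone, which 6.34% of 33469 such stretches hold, and the Il7r stretch held none. Of the 40 genes 32 had a listed stretch, and 3, 4, 4 and 3 of them held the STAT, AP-1, GATA and ETS motif, where the shares over all stretches were 7.67%, 6.34%, 10.3% and 12.6%. The stretches differed in composition, with 56.8% G and C and 3 CG pairs for Il16 against 44.4% and 0 for Il7r.

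Il10, the cytokine that restrains inflammatory responses of macrophages and T cells, rose at 24 h by a small amount. Its ratios at 24 h were -0.05, 0.03, 0.01 and 0.01 at 150 mg/kg, 0.22, 0.19, -0.00 and 0.07 at 1500 mg/kg, and 0.13, 0.19, 0.12 and 0.35 at 2500 mg/kg. All 2500 mg/kg rats lay above all 150 mg/kg rats. The mean at 2500 mg/kg was 0.20 ± 0.11 (SD, n = 4), 1.15 times the vehicle level (adjusted p = 0.000176), and at 1500 mg/kg 0.12 ± 0.10 (adjusted p = 0.0294). Without rat 3631 the 2500 mg/kg mean was 0.15 (adjusted p = 0.00343). The 1500 mg/kg call was lost without rat 3623 (adjusted p = 0.324) or 3624 (adjusted p = 0.19).

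Il10 was 1 of 2 interleukin genes that differed between doses: at 24 h it was higher at 2500 than at 150 mg/kg by 0.19, with a 95% interval of 0.09 to 0.30 (adjusted p = 0.0147), in a comparison that called 7.65% of all genes. This difference was 0.14 without rat 3631 (adjusted p = 0.0432) and did not pass without rat 3617 (adjusted p = 0.0513) or when only the 24 h rats were fitted (adjusted p = 0.261). At 6 and 12 h no Il10 group mean exceeded 0.05 in size.

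Il23a encodes the p19 chain of IL-23, which pairs with the p40 chain encoded by Il12b and sustains IL-17-producing T cells. At 6 h Il23a gave -0.30, 0.35, 0.75 and 0.16 at 150 mg/kg, 0.68, 0.72, 0.99 and 0.92 at 1500 mg/kg, and -0.21, 0.14, -0.39 and 0.24 at 2500 mg/kg. It rose at 1500 mg/kg (mean 0.83 ± 0.15, n = 4, 1.77 times the vehicle level, adjusted p = 0.000528), with all 8 arrays above 0 and none at exactly 0. With a control of 1 rat, as the labels name it at 6 h, it did not pass (adjusted p = 1). The 2500 mg/kg rats lay below those of 1500 mg/kg without overlap, but that difference of -0.88 did not pass after adjustment (adjusted p = 0.716), in a comparison that called 0% of all genes, 0 interleukin genes and 2 at an unadjusted p under 0.05. In the other 8 groups 2 to 6 of the 6 or 8 arrays were at exactly 0, and no mean passed.

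The other ligand calls were less even over rats or dyes. At 2500 mg/kg and 24 h, Il12b gave -0.28, -0.15, 0.89 and 1.88 (mean 0.58 ± 1.01, adjusted p = 0.0426) and Il11, a cytokine of the IL-6 family, gave -0.26, 0.02, 0.75 and 1.26 (mean 0.44 ± 0.69, adjusted p = 0.0241). In both, rats 3630 and 3631 were high and the other pair was at or below 0.02. Without rat 3631 the means were 0.15 (adjusted p = 0.644) and 0.17 (adjusted p = 0.42).

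Il36b, a ligand of the IL-36 receptor, gave 0.20, 0.50, 0.35 and 0.51 in the same group (mean 0.39 ± 0.14, adjusted p = 0.0454). All 4 rats were above 0, yet the mean over the arrays with treated RNA in Cy5 was 1.05 and over those in Cy3 it was -0.27. Without rat 3631 its mean was 0.35 (adjusted p = 0.159). Il17b was called there at 0.13 ± 0.16 (adjusted p = 0.00534), and at 0.06 without rat 3631 it did not pass (adjusted p = 0.104).

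At 12 h 2 further ligands were called, each through 1 rat. Il6, the main inducer of acute phase proteins in liver, gave -1.38, -0.10 and -0.19 at 1500 mg/kg (mean -0.56 ± 0.71, n = 3, adjusted p = 0.0323). Its mean was -0.15 without rat 4132 (adjusted p = 0.691), and the arrays of opposite dye orientation averaged 0.60 and -1.71. Il13, a cytokine of type 2 immunity, gave 0.06, 0.66 and 0.01 at 150 mg/kg (mean 0.24 ± 0.37, n = 3, adjusted p = 0.0487), and 0.66 was the value of rat 4128. Without that rat its mean was 0.03, and the call was kept in 6 of the 34 fits that left out 1 rat. For Il13 the arrays of this group with treated RNA in Cy5 averaged 0.51 and those in Cy3 -0.02. The ligands not called in any group with all 34 rats included Il2, Il3, Il4, Il7, Il9, Il15, Il24, Il33 and Il34. Their group means all lay between -0.30 and 0.29.

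Among the receptor chains, Il13ra1 rose at 24 h. It binds IL-13 and forms, with the chain encoded by Il4r, a receptor for both IL-4 and IL-13 on monocytes and other cells. At 24 h its ratios were 0.21, 0.17, -0.02 and 0.09 at 150 mg/kg, 0.26, 0.78, 0.54 and 1.13 at 1500 mg/kg, and 0.83, 0.36, 0.97 and 2.18 at 2500 mg/kg. Each rat of both higher doses lay above each of 150 mg/kg, and rat 3631 was the highest of all. The mean was 0.68 ± 0.37 (SD, n = 4) at 1500 mg/kg, 1.6 times the vehicle level (adjusted p = 0.0122), and 1.08 ± 0.78 (n = 4) at 2500 mg/kg, 2.12 times the vehicle level (adjusted p = 4.96e-05). Without rat 3631 the 2500 mg/kg mean was 0.72 (adjusted p = 0.000943).

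The difference of Il13ra1 between 2500 and 150 mg/kg at 24 h was 0.97, with a 95% interval of 0.47 to 1.47 (adjusted p = 0.0143), and 0.61 without rat 3631 (adjusted p = 0.0439). It passed in each of the 34 fits that left out 1 rat, and it did not pass when only the 24 h rats were fitted (adjusted p = 0.234). At 1500 mg/kg the arrays with treated RNA in Cy5 averaged 0.15 and those in Cy3 1.21, and 6 of 8 arrays were above 0. At 2500 mg/kg these means were 1.39 and 0.78, and 7 of 8 arrays were above 0. The Cy5 mean at 2500 mg/kg includes the array of rat 3631 that stood apart. In every other group the Cy5 mean was below the Cy3 mean, as at 150 mg/kg and 24 h (-0.35 and 0.57). The 1500 mg/kg call at 24 h was lost without rat 3624 (adjusted p = 0.0635) or 3626 (adjusted p = 0.118).

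At 12 h Il13ra1 gave -0.05, 0.93 and 0.34 at 150 mg/kg, 0.50, 0.94 and 0.56 at 1500 mg/kg and 0.37, 0.34, 0.10 and 0.15 at 2500 mg/kg. The 1500 mg/kg mean of 0.67 ± 0.24 (n = 3) passed narrowly (adjusted p = 0.0494) and was kept in 7 of the 34 fits that left out 1 rat, and the lower dose overlapped with it. At 6 h the group means were -0.15, 0.15 and -0.09, and none passed.

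Il4r, its partner chain, moved the other way by a small amount at 24 h. Its ratios were -0.02, -0.18, -0.06 and 0.05 at 150 mg/kg, -0.28, -0.23, 0.07 and -0.11 at 1500 mg/kg, and -0.13, -0.13, -0.16 and -0.45 at 2500 mg/kg. All 2500 mg/kg rats were below 0, and they overlapped with those of 150 mg/kg. Il4r fell at 1500 mg/kg (mean -0.14 ± 0.16, adjusted p = 0.0486) and 2500 mg/kg (mean -0.22 ± 0.15, adjusted p = 0.00071). It was -0.14 at 2500 mg/kg without rat 3631 (adjusted p = 0.0151), it did not pass there when only the 24 h rats were fitted (adjusted p = 0.0824), and the 1500 mg/kg call was kept in 6 of the 34 fits that left out 1 rat. The difference between 2500 and 150 mg/kg, -0.17 with a 95% interval of -0.30 to -0.04, did not pass after adjustment (adjusted p = 0.0941).

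**Figure D4:**
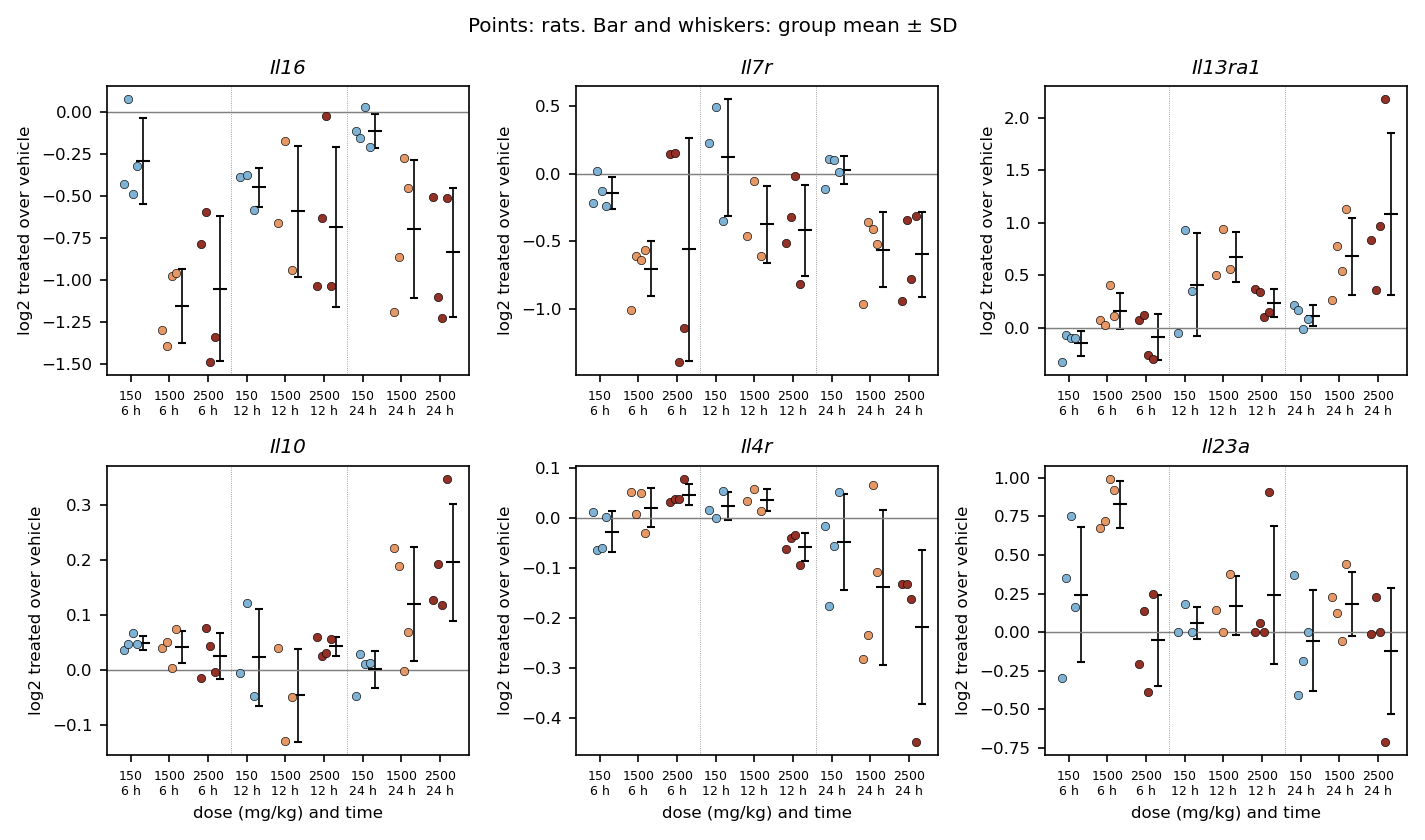
Log2 treated over vehicle of 6 interleukin genes in every rat (points), by dose (mg/kg) and time, with the group mean ± SD (bar and whiskers); each panel has its own vertical scale. At 24 h the rats of 1500 and 2500 mg/kg lie below those of 150 mg/kg for Il16 and Il7r and above them for Il13ra1, and Il23a is high at 1500 mg/kg and 6 h.

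The remaining receptor calls were small or rested on 1 rat. At 2500 mg/kg and 6 h Il6r, the IL-6-binding chain, gave -0.12, -0.12, -0.56 and -0.42 (mean -0.31 ± 0.22, adjusted p = 0.0214), with rats 3597 and 3598 again lowest, and it did not pass without either of them (adjusted p = 0.234 and 0.142). Il9r in that group gave 0.09, 0.16, 0.09 and 0.06 (mean 0.10 ± 0.04, adjusted p = 0.0133), a difference of 1.07 times the vehicle level seen on all 8 arrays. It did not pass without rat 3596 (adjusted p = 0.0874) or 3597 (adjusted p = 0.0562). At 6 h Il9r was also above 0 on all 8 arrays of 150 mg/kg and on 7 of 8 of 1500 mg/kg. Il6r was below 0 on all 8 arrays of each of these groups. For both genes the 2500 mg/kg rats overlapped with those of 150 mg/kg. With the error widened for a control pool of 4 rats neither passed (adjusted p = 0.243 for Il9r and 0.301 for Il6r).

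At 2500 mg/kg and 24 h Il27ra, a chain of the IL-27 receptor, gave 0.01, -0.04, -0.14 and -0.91 (mean -0.27 ± 0.43, adjusted p = 0.0177). Il3ra, the IL-3-binding chain, gave -0.11, -0.10, 0.26 and 1.25 (mean 0.32 ± 0.64, adjusted p = 0.0438). In both the value farthest from 0 was that of rat 3631, and without it the means were -0.06 (adjusted p = 0.48) and 0.02 (adjusted p = 0.921). The inhibitor Il18bp, which binds and neutralises IL-18, gave 0.33, 0.21, 0.12 and 0.24 at 1500 mg/kg and 24 h (mean 0.23 ± 0.09, adjusted p = 0.00591) and 0.12, -0.08, 0.08 and -0.08 at 2500 mg/kg, where it did not pass (adjusted p = 0.918). Its call at 1500 mg/kg was lost without rat 3623 (adjusted p = 0.0797).

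Il2rg and Il2rb, signalling chains shared between receptors, were not called in any group with all 34 rats. Il2rg, the common gamma chain itself, had group means between -0.27 and 0.22. It was called at 2500 mg/kg and 24 h without rat 3631, where the remaining rats gave -0.61, -0.85 and -0.13. Il33 was called there too, with 0.13, 0.14 and 0.06. Il2rb, the chain that serves IL-2 and IL-15, lay between -0.28 and 0.16. Il2ra, the high-affinity IL-2 receptor chain of activated and regulatory T cells, stayed between -0.14 and 0.09, and Il10ra between -0.01 and 0.07. Among the 23 genes called in none, the highest group means were those of Il12a (0.44 at 150 mg/kg and 6 h), Il5 (0.41 at 150 mg/kg and 12 h) and Il10rb (0.33 at 150 mg/kg and 6 h). The lowest were those of Il13ra2 (-0.38 at 150 mg/kg and 24 h), Il10rb (-0.37 at 150 mg/kg and 12 h) and Il17rb (-0.30 at 1500 mg/kg and 24 h), of which the first held a rat at -1.46 and the last was at exactly 0 on 6 of 8 arrays.

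Over the 9 comparisons between doses, Il13ra1 and Il10 at 24 h were the only interleukin genes called, both higher, where 2.56% of all genes were higher. In the other 8, counts were 0 of 40, with 2 to 7 genes at an unadjusted p under 0.05 and 0% to 2.14% of all genes called. No interleukin gene was called for a change of the dose difference over time: all 6 comparisons gave 0 of 40, with 1 to 7 at an unadjusted p under 0.05. For 1500 minus 150 mg/kg, 0%, 0.0104% and 0.249% of all genes were called between 6 and 12 h, 12 and 24 h, and 6 and 24 h, and for 2500 minus 150 mg/kg 0%, 0.311% and 1.89%. For Il13ra1 the difference of 2500 from 150 mg/kg grew by 0.91 at 24 h over 6 h, with a 95% interval of 0.20 to 1.62 (adjusted p = 0.229), and for Il10 by 0.22, with an interval of 0.08 to 0.36 (adjusted p = 0.124). The same change for Il16 was 0.04, with an interval of -0.64 to 0.71.

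**Figure D5:**
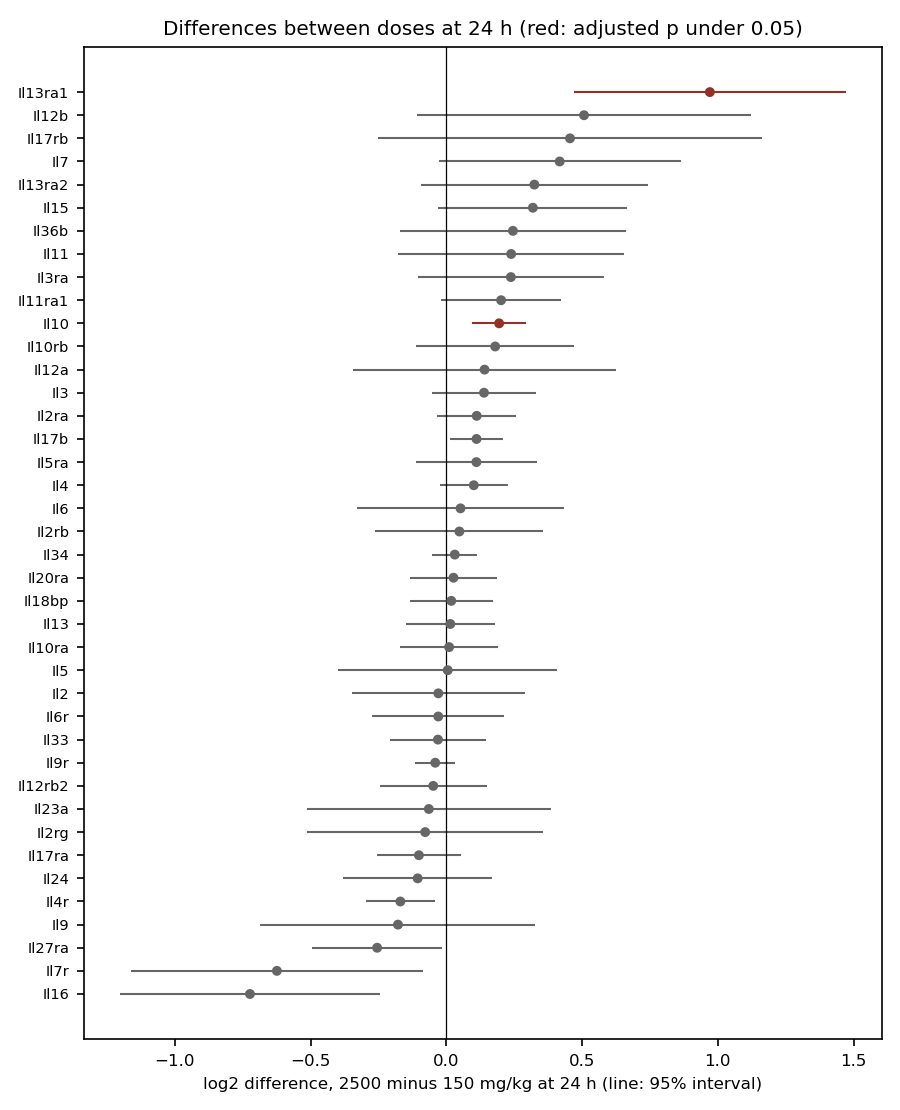
Log2 difference of 2500 minus 150 mg/kg at 24 h for the 40 interleukin genes, in order of size, with 95% intervals that are not adjusted for the number of genes. Il13ra1 (0.97) and Il10 (0.19) were called after adjustment, drawn in red, and Il16 and Il7r lie at the low end with -0.72 and -0.62.

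Genes that act with the interleukins were counted in the same fits. Of 29 ligands and receptor chains of the same families without an Il symbol, 23 were measured, and 2 were higher and 3 lower at 2500 mg/kg and 24 h, 21.7% of the list where 26.5% of all genes were called. The 4 with the smallest adjusted p were Clcf1, a ligand of the IL-6 family (-0.35), Ebi3, a chain of IL-27 and IL-35 (0.31), Csf1r, the receptor for CSF-1 and IL-34 and also a monocyte marker here (0.38), and Crlf2, the TSLP receptor chain (-0.07). Without rat 3631 only Clcf1 was called (-0.27). Their median was 0.10 in that group and 0.04 without rat 3631.

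Of 26 genes of receptor signalling 24 were measured. At 1500 mg/kg and 6 h 4 were lower and 0 higher, where 9.24% of all genes were lower: Lck (-0.90), Stat5b (-0.36), Stat5a (-0.37) and Pik3cd (-0.36). At 2500 mg/kg and 24 h 4 were lower, namely Lck (-0.96), Pik3cd (-0.53), Grb2 (-0.26) and Ptpn6 (-0.33), 16.7% of the list where 15.6% of all genes were lower. Without rat 3631 Ptpn6 was not called, while Stat5a was lower (-0.45) and Stat3 higher (0.10). Lck is also 1 of the T cell markers. The list medians in these groups were -0.06 and -0.01, and those of all genes 0.01 and -0.00. Over the rats the list median ranged from -0.12 to -0.05 at 1500 mg/kg and 6 h. At 2500 mg/kg and 24 h it ranged from -0.10 to 0.06.

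Socs3, the feedback inhibitor induced by IL-6 and IL-10 through STAT3, was lower than vehicle in 5 groups by small amounts. Its means at 6 h were -0.11 ± 0.01 at 150 mg/kg, -0.14 ± 0.03 at 1500 mg/kg and -0.16 ± 0.03 at 2500 mg/kg (n = 4 each, adjusted p = 0.0209, 0.0004 and 0.000201). At 12 h they were -0.12 ± 0.07 at 150 mg/kg and -0.13 ± 0.03 at 1500 mg/kg (n = 3 each, adjusted p = 0.0368 and 0.0117). All 5 groups were of 6 or 12 h, where every dose was set against the same control sample of its time. These adjusted p leave out the control's own spread, and a shift of the control itself was not tested. Of the 10 measured feedback inhibitors 2, Pias4 (0.16) and Pias1 (0.13), were higher at 2500 mg/kg and 24 h and 0 lower. Of all genes 10.9% were higher there. Without rat 3631 none of these inhibitors was called, with 2 at an unadjusted p under 0.05.

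Targets of STAT3 and acute phase genes, 16 of 21 measured, included 7 higher and 1 lower at 2500 mg/kg and 24 h, where 10.9% of all genes were higher and 15.6% lower, with a list median of 0.16. The smallest adjusted p were those of Pim1, a kinase (-0.71), the serum amyloid gene Saa4 (0.15), the fibrinogen chain Fgg (0.24) and the NF-kB cofactor Bcl3 (0.65). Without rat 3631, 5 were higher and 1 lower and the median was 0.06, where 19% of all genes were called in either direction. Of 12 targets of STAT5 and STAT6, Arg1, which IL-4 and IL-13 induce in macrophages, was higher (0.76) and Pim1 lower, and both calls were also made without rat 3631.

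Several neutrophil markers were higher at 24 h. Of 10 measured, 6 were higher and 0 lower at 1500 mg/kg, and 5 higher and 1 lower at 2500 mg/kg. Without rat 3631, 6 were higher and 0 lower at 2500 mg/kg. Of all genes, 2.34% and 10.9% were higher and 5.74% and 15.6% lower in these groups with all 34 rats. Without rat 3631 the share of all genes called at 2500 mg/kg was 19%, counted over both directions together. The calprotectin genes S100a8 (2.90) and S100a9 (3.08) were the highest at 2500 mg/kg. The median over these markers at 24 h ranged over the rats from -0.12 to 0.01 at 150 mg/kg, from 0.16 to 0.65 at 1500 mg/kg and from 0.08 to 0.43 at 2500 mg/kg. The middle of these values was 0.37 at 1500 mg/kg and 0.19 at 2500 mg/kg, whereas the Il13ra1 and Il10 means were larger at 2500 mg/kg. At 12 h the marker median already ranged from 0.12 to 0.29 at 1500 mg/kg and from 0.01 to 0.20 at 2500 mg/kg. Of 11 monocyte and macrophage markers 1 was higher and 1 lower at 1500 mg/kg, and 2 were higher and 2 lower at 2500 mg/kg (1 and 1 without rat 3631). The part of these cells in the Il13ra1 and Il10 ratios was not tested.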

How the data were processed

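Per the labels, blood RNA of 34 rats was hybridised on 68 dual-colour arrays, and the deposited values are log10 ratios of both dyes. The sources used here do not give the background correction or normalization. Cy5 over Cy3 was taken as the likely direction of the ratio. Values were converted to log2 (times 3.322), and turned by the labelled dyes. Both arrays of an animal were averaged to 1 replicate, and the animals are separate. Before turning, the values of a rat's 2 arrays over named probes correlated by -0.30 to 0.86, above 0 in 28 of 34 rats. A treatment difference changes sign between these arrays, and a dye difference does not. The mean ratio over all unturned arrays exceeded 1.5-fold in either direction for 10.8% of named probes. Probes were named through the platform annotation, updated by Entrez identifier to GRCr8 symbols: 12750 of 22075 probes had 1 gene, 5 several and 9320 none, and 12720 matched. Gene values are means over probes. Signal over background is not part of these values, so no dim probe was left out. The number of arrays limits the precision.

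limma 3.58.1 in R 4.3.3 (package data.table, version 1.17.8) fitted a mean per group to all 34 rats (25 residual and 1.73 prior degrees of freedom), with 24 comparisons, and Benjamini-Hochberg adjustment over 9653 genes in each. The fit was tested on simulated data. Tables and figures used Python 3.11.15, pandas 2.3.3, numpy 2.4.6 and matplotlib 3.10.9. Genes with an adjusted p under 0.05 against vehicle or between doses were named, with the 3 highest and 3 lowest others by group mean, and up to 4 genes of each other list by adjusted p. The members and lists were chosen with earlier results of these data known. Alternatives were scaling of arrays, leaving out exact zeros, medians over probes, another prior, fits within a time, removal of the dye profile, a wider error for the control, and leaving out each rat.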

Additional observations from a re-analysis of the deposited data

Results flagged for a closer look

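Among the 22 named genes, 154 groups of 4 rats were examined for a rat far from the other 3, and 15 held one, by Dixon's ratio of gap to range at its 95% limit, where chance gives about 1 in 20. The values are log2 treated over vehicle. In the 2500 mg/kg group at 24 h, rat 3631 was low for Il4r (-0.45, others -0.16 to -0.13) and Il27ra (-0.91, others -0.14 to 0.01), and rat 3629 was high for Il17rb (1.03, others at exactly 0). In the 1500 mg/kg group at 24 h, rat 3624 was high for Il12b (1.004, others -0.07 to -0.02). In the 150 mg/kg group at 24 h, rat 3619 was low for Il13ra2 (-1.46, others -0.12 to 0.04) and rat 3618 for Il17rb (-0.80, others at exactly 0).

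In the 2500 mg/kg group at 12 h, rat 4138 was high for Il23a (0.91, others 0.00 to 0.06) and Il17rb (1.28, others -0.12 to 0.01), and rat 4136 was low for Il36b (-0.69, others 0.18 to 0.27). At 6 h, rat 3595 of 2500 mg/kg was high for Il36b (0.54, others 0.07 to 0.09) and slightly low for Il17b (-0.063, others -0.014 to -0.010). In the same group rat 3596 was low for Il6 (-0.20, others 0.18 to 0.26) and rat 3598 slightly high for Il4r (0.078, others 0.032 to 0.037). Rat 3591 of 1500 mg/kg was low for Il7r (-1.01, others -0.64 to -0.56), and rat 3587 of 150 mg/kg was low for Il13ra1 (-0.33, others -0.10 to -0.07).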

How the results depend on the processing

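Counts of interleukin genes called against vehicle are given in the order 150, 1500 and 2500 mg/kg. They were 0, 3 and 3 at 6 h, 1, 2 and 1 at 12 h, and 0, 5 and 11 at 24 h. With arrays scaled to one spread the 6 h count at 1500 mg/kg was 11 (7 higher, 4 lower, against 1 higher and 2 lower), the 12 h counts were 2, 0 and 0, the 24 h count at 2500 mg/kg was 7 (3 higher, 4 lower, against 7 higher and 4 lower), and Il16 alone was called between doses at 6 h (1 for 1500 against 150 mg/kg and 1 for 2500 against 150 mg/kg). With only rats of the same time the counts were 2 and 6 at 150 and 1500 mg/kg at 6 h, 0, 0 and 0 at 12 h, 3 and 5 at 1500 and 2500 mg/kg at 24 h, and 0 between 2500 and 150 mg/kg at 24 h. With another prior the 12 h counts were 0, 1 and 0. Medians over probes and removal of the dye profile each gave 1 at 1500 mg/kg and 12 h. With the error widened for pools of 4, 4 and 6 rats the counts were 0, 2 and 1 at 6 h (Il7r was lost at 1500 mg/kg), 0, 0 and 0 at 12 h, and 0 and 4 at 1500 and 2500 mg/kg at 24 h. For a control of 1 rat at 6 and 12 h they were 0, 0 and 0 at 6 h, 0, 0 and 0 at 12 h, and again 0 and 4 at 24 h. The calls of Il16, Il13ra1 and Il10 at 2500 mg/kg and 24 h were kept under all 8 alternatives, but not all of these could differ. Each gene has 1 probe and no exact zero, so medians over probes and leaving out zeros cannot change its values. Both control settings use 6 rats at 24 h and are the same test there. Except where fewer rats or a wider error explain a loss by construction, the cause was not tested. Leaving out 1 rat at a time gave 0 to 1, 2 to 5 and 1 to 4 at 6 h, 0 to 1, 0 to 3 and 0 to 1 at 12 h, and 0 to 0, 1 to 7 and 7 to 12 at 24 h. It gave 1 to 4 between 2500 and 150 mg/kg at 24 h and 0 to 0 in the other dose and time comparisons. Rats 3591 and 3623 gave the extremes at 1500 mg/kg and 6 h (2 and 5), rat 3597 the lowest at 2500 mg/kg and 6 h (1), rats 4132 and 3631 those at 1500 mg/kg and 12 h (0 and 3), rats 3623 and 3631 those at 1500 mg/kg and 24 h (1 and 7), rat 3631 the lowest at 2500 mg/kg and 24 h (7), and rats 3617 and 3628 those between 2500 and 150 mg/kg (1 and 4). No direction of a named call was reversed. No paired analysis was possible because no rat number is shared between groups. Values without signal over background allowed no filter on dim probes and no other background correction.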

Other observations

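Il10rb, the shared second chain of receptors for IL-10 and related cytokines, was measured by 2 probes whose ratios differed in spread. Over the 34 rats 1 probe ranged from -0.55 to 0.11 and the other from -1.09 to 1.74. The mean of both gave the smallest unadjusted p for a change of a dose difference over time among the 40 genes (4.84e-05): 1500 minus 150 mg/kg was higher at 12 h than at 6 h by 1.04, with a 95% interval of 0.60 to 1.49 (adjusted p = 0.157, 0% of all genes called). Its rats at 150 mg/kg gave -0.09, -0.60 and -0.42 at 12 h and 0.13, 0.33, -0.00 and 0.88 at 6 h.

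Il9 held the highest ratio of a ligand that was never called, 1.55 in rat 3624 of the 1500 mg/kg group at 24 h, where its group mean was 0.29. The same rat was high for Il12b.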
